A study of Oryza sativa with 8 samples.

Results

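The 26S proteasome transcripts of the rice shoot apical meristem were taken from a table of 43481 transcript models at 36819 loci by their annotation text. Models whose annotation held "proteasome", "26S protease" or "20S" numbered 81, at 63 loci, and each locus was represented by the matching model with the highest mean. Of the 63 loci, 23 encode subunits of the core particle (13 alpha and 10 beta) and 29 encode subunits of the regulatory particle (10 ATPases and 19 non-ATPases). Another 9 are proteasome factors or loci with a proteasome-type domain, of which 5 are assembly factors, 3 carry a PCI domain and 1 carries a proteasome/cyclosome domain. The remaining 2 matched by text alone, one as "P20Sh148J07" and the other as a histone-lysine methyltransferase. All 63 passed the filter on low values and were tested.

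The 26S proteasome is the ATP-dependent protease that degrades proteins marked with ubiquitin in the cytosol and nucleus. Its 20S core particle is a barrel of stacked rings, in which outer rings of alpha subunits form the gate and inner rings of beta subunits carry the active sites. The 19S regulatory particle caps the barrel. Its base holds the ATPases RPT1 to RPT6, which unfold substrates and open the gate, and its lid holds non-ATPase subunits, among them the deubiquitinase RPN11. In plants the complex is required in meristems, where hormone receptors act by sending repressor proteins to it, and in Arabidopsis mutants of single regulatory subunits alter meristem and organ size.

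Total RNA of the shoot apical meristem was sequenced single-end from 2 libraries of the cultivar Nipponbare, 3 of GW6a-4.6 and 3 of OsglHAT1-OE. In the substitution line (CSSL) GW6a-4.6, a piece of the Nipponbare genome is replaced by that of Kasalath, another cultivar, so other loci in that piece may differ too. OsglHAT1-OE plants are transgenics in Nipponbare, for which the labels give no promoter and no number of independent lines. GW6a and OsglHAT1 name the same gene, a histone H4 acetyltransferase, and the libraries address what that gene goes with in the meristem. The labels do not say whether replicates were separate plants, so p-values measure the spread between these libraries, which may be technical. In bulk tissue, fewer cells of a type and less RNA per cell cannot be told apart.

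Values below are the deposited signal per transcript model after rescaling each library by its median ratio, called rescaled signal. Library totals were 5207710 to 7667853 reads, log2 values correlated across loci at 0.985 to 0.991 within groups and 0.897 to 0.958 between groups, and OsglHAT1-OE replicate 3 had the lowest rescaling factor, 0.857. The GW6a/OsglHAT1 transcript Os06t0650300-00 went against the dose that the names would give. Its rescaled signal was 1.47 and 2.29 in Nipponbare, 2499, 2456 and 2754 in GW6a-4.6, and 13.3, 8.88 and 11.7 in OsglHAT1-OE. The highest level was thus in the libraries labelled GW6a-4.6, and groups are named by their labels only. The meristem genes OSH1 and OSH15 were detected in all 8 libraries, with means of 31.6 and 48.7 in Nipponbare, 93.0 and 159.8 in GW6a-4.6, and 111 and 99.6 in OsglHAT1-OE. Summed markers of other tissues also differed between some of the groups, though the pollen, tapetum and anther sums of GW6a-4.6 and Nipponbare overlapped. The summed signal of 38 seed maturation loci (2 at 0 throughout) was 3491 to 3868 in Nipponbare, 1023 to 1104 in GW6a-4.6 and 979 to 1031 in OsglHAT1-OE. That of 20 leaf loci (2 at 0 throughout) was 3384 to 3779, 2631 to 3263 and 3957 to 4141, and that of 64 pollen, tapetum and anther loci (10 at 0 throughout) was 3018 to 3176, 2944 to 3250.1 and 4290.4 to 4419. Their part in the proteasome results was not tested.

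The summed rescaled signal of the core particle was higher in both lines than in Nipponbare. That of the regulatory particle overlapped Nipponbare in GW6a-4.6 and was higher in OsglHAT1-OE, a pattern that depended on rescaling. The summed rescaled signal of the 23 core loci was 3296 and 3185 in Nipponbare, 4026, 3774 and 3877 in GW6a-4.6, and 4081, 4087 and 4244 in OsglHAT1-OE. Every library of either line lay above both Nipponbare libraries, and the group means stood 1.2-fold and 1.28-fold above that of Nipponbare. For the 29 regulatory loci the summed signal was 5029.8 and 5059 in Nipponbare, 4903 to 5059 in GW6a-4.6, and 5428 to 5892 in OsglHAT1-OE. GW6a-4.6 overlapped Nipponbare in this sum, at 0.986 times its mean, and OsglHAT1-OE lay above it throughout, at 1.12 times. That regulatory pattern depended on the rescaling factors, 1.05 to 1.06 in GW6a-4.6 and 0.857 in OsglHAT1-OE replicate 3. Without rescaling, every GW6a-4.6 library would lie above both Nipponbare libraries in the regulatory sum. OsglHAT1-OE replicate 3, the highest with rescaling, would lie between the Nipponbare libraries. The core sums of both lines would stay above Nipponbare.

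The ratio of the core sum to the regulatory sum is unchanged by any single factor applied to a whole library. It was 0.655 and 0.630 in Nipponbare, 0.821, 0.746 and 0.781 in GW6a-4.6, and 0.752, 0.734 and 0.720 in OsglHAT1-OE. Both lines lay above Nipponbare in every library and overlapped each other. Relative to the Nipponbare mean of 0.642 ± 0.0182 (SD, n = 2), the mean was 1.22 times as high in GW6a-4.6 (0.783 ± 0.0376, n = 3) and 1.14 times in OsglHAT1-OE (0.735 ± 0.0158, n = 3). An exact permutation test over libraries, two-sided, gave p = 0.1 for each line against Nipponbare, the smallest that 2 against 3 libraries can give, and 0.2 between the lines. Leaving out each library in turn gave 1.19 to 1.25 for GW6a-4.6 and 1.12 to 1.17 for OsglHAT1-OE. The lines share the Nipponbare libraries, so their ratios are not independent of each other.

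**Figure D1:**
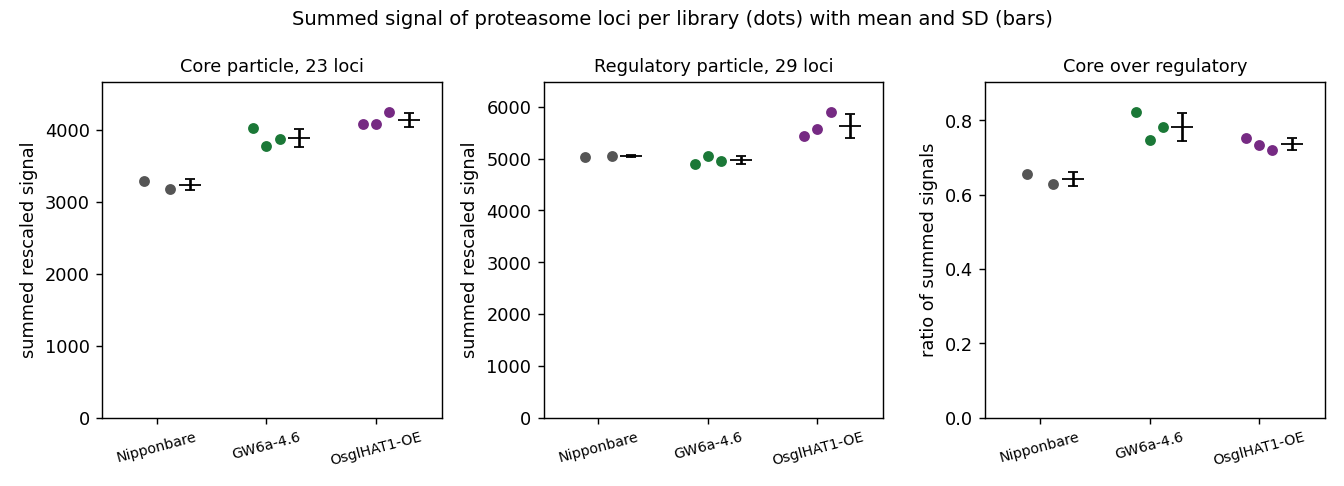
Summed rescaled signal of the core particle (23 loci) and of the regulatory particle (29 loci) and the ratio of these sums, per library; dots are libraries, horizontal bars group means and vertical bars SD (n = 2, 3 and 3). The core sums of both lines sit above both Nipponbare libraries, while the regulatory sums of GW6a-4.6 overlap those of Nipponbare after rescaling.

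Across single loci, limma at an adjusted p under 0.05 over all 31487 loci called 14 of 23 core loci higher in GW6a-4.6 than in Nipponbare, 1 lower and 8 neither way. Over all loci tested, 25.4% were called higher and 25.1% lower in that comparison. The median log2 change was 0.30 over the core loci and -0.00097 over all loci. In OsglHAT1-OE against Nipponbare, 15 core loci were higher, 2 lower and 6 neither way, beside 27.6% of all loci called higher and 28.3% lower, with a core median of 0.33 against -0.01. Beta loci held 7 higher calls and no lower one in GW6a-4.6, and 8 higher and 1 lower in OsglHAT1-OE. Beta loci lower in GW6a-4.6 were also 0 at an unadjusted p under 0.05 and with edgeR or DESeq2. Alpha loci held 7 higher and 1 lower in each line. The single lower core call in GW6a-4.6 became 2 without GW6a-4.6 replicate 1 and 0 without Nipponbare replicate 2, and the 2 in OsglHAT1-OE became 1 without Nipponbare replicate 2.

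Of 29 regulatory loci in GW6a-4.6, 5 were higher (17.2%), 6 lower (20.7%) and 18 neither way, both shares under those of all loci (25.4% and 25.1%), with a median log2 change of -0.05. That median was 0.03 without rescaling and 0.05 after quantile normalization. Relative to the median of all loci it was -0.04 with rescaling, without it, with edgeR and with DESeq2, and 0.07 after quantile normalization. Its sign thus turned on quantile normalization and is not settled. In OsglHAT1-OE against Nipponbare, 11 regulatory loci were higher (37.9%), 2 lower (6.90%) and 16 neither way, beside 27.6% and 28.3% of all loci, with a median of 0.16. Leaving out any 1 library also lowered the number of all loci called in GW6a-4.6 against Nipponbare. In OsglHAT1-OE that number fell in some of these fits. Leaving out a Nipponbare library left 1 in that group, so lost calls are not particular to the particle. The 5 higher in GW6a-4.6 became 3 without GW6a-4.6 replicate 3. The 6 lower became 2 without GW6a-4.6 replicate 3, 3 without Nipponbare replicate 1 and 1 without Nipponbare replicate 2. In OsglHAT1-OE the 11 higher became 7 without Nipponbare replicate 2. The 2 lower became 1 without Nipponbare replicate 1 or OsglHAT1-OE replicate 1, and 0 without OsglHAT1-OE replicate 2.

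**Figure D2:**
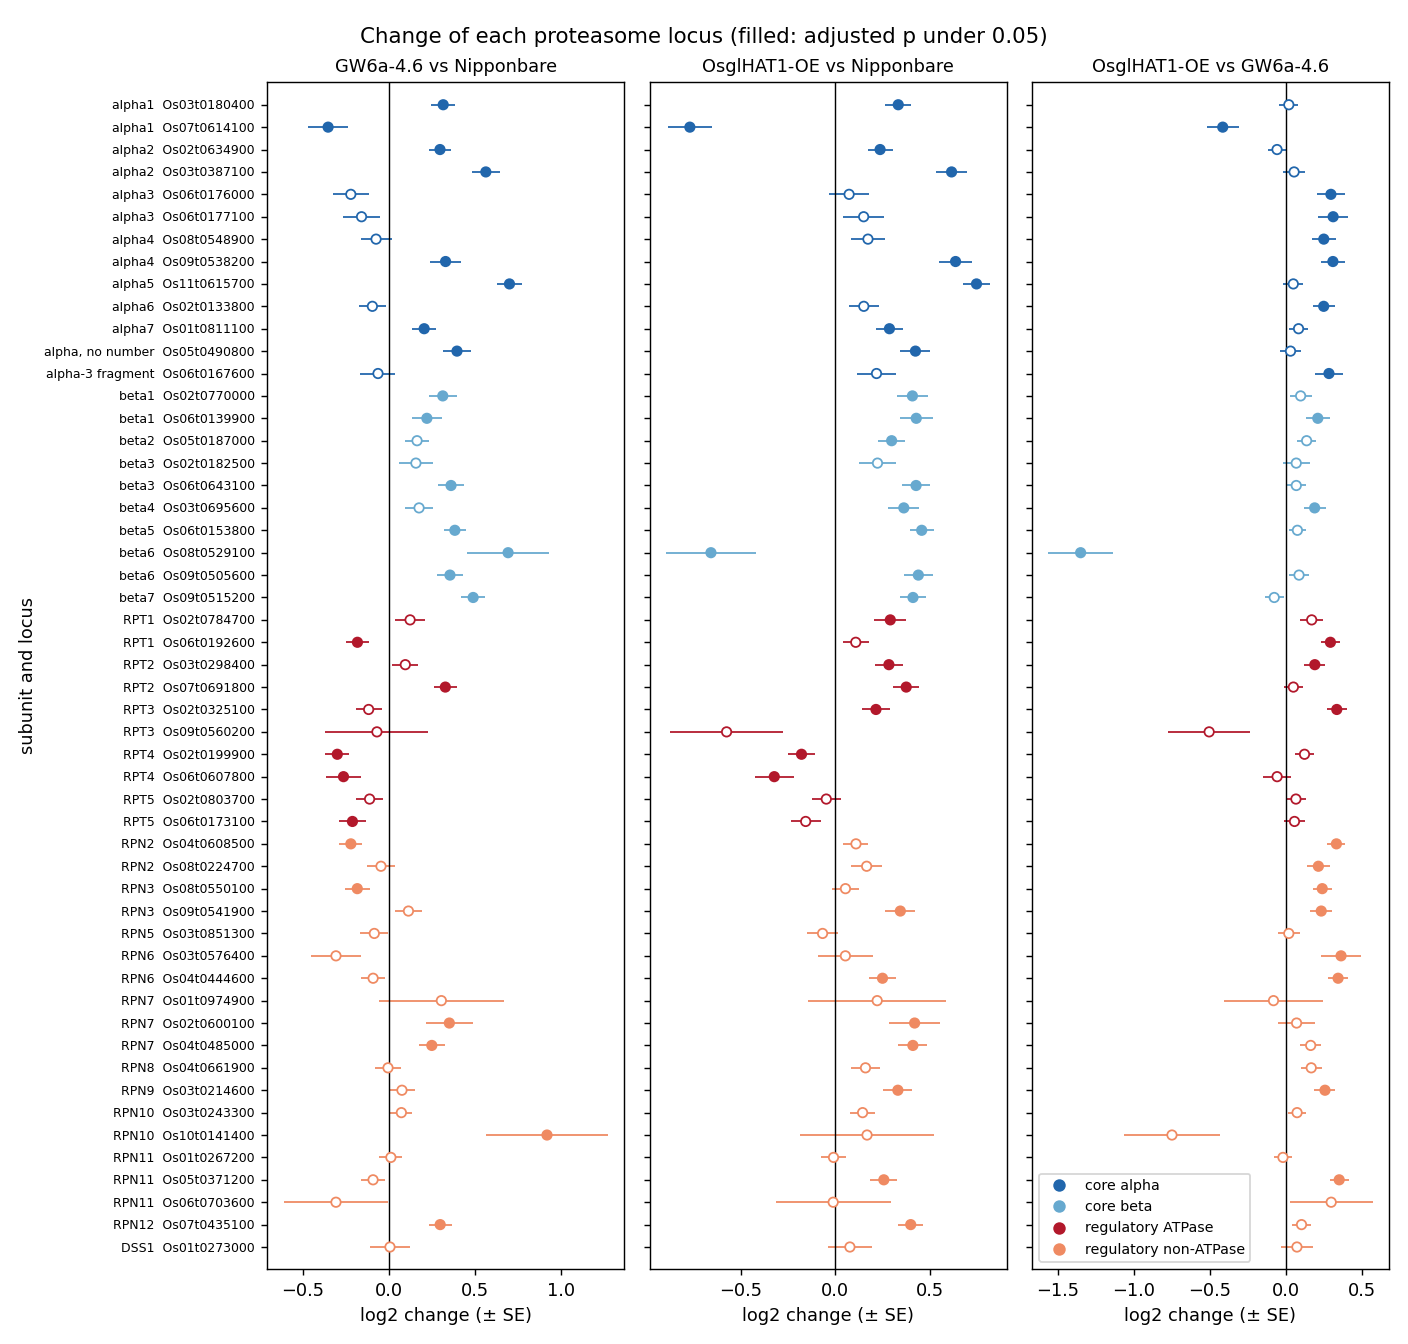
Log2 change of each of the 52 subunit loci in the 3 comparisons (horizontal axes, with SE as bars), ordered by subunit; filled points passed an adjusted p under 0.05 and colours mark alpha, beta, ATPase and non-ATPase loci. Core points lie mostly to the right of 0 in both comparisons with Nipponbare, and Os07t0614100 of α1 lies to the left of 0 in all 3.

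In the accounts of single loci, a pair of log2 changes gives GW6a-4.6 first and OsglHAT1-OE second, each against Nipponbare, and adjusted p-values are from limma. In the alpha ring, α1 was split between its loci. At Os03t0180400-01 the rescaled signal was 223 and 218 in Nipponbare, 275, 259 and 289.8 in GW6a-4.6, and 268, 289 and 277 in OsglHAT1-OE. Every library of both lines exceeded both of Nipponbare, with log2 changes of 0.32 (SE 0.07, adjusted p = 0.00036) in GW6a-4.6 and 0.33 (SE 0.07, adjusted p = 0.000159) in OsglHAT1-OE. The other α1 locus, Os07t0614100-01, held 56.5 and 65.4 in Nipponbare, 46.1, 48.3 and 47.8 in GW6a-4.6, and 33.1, 40.9 and 32.4 in OsglHAT1-OE. The groups did not overlap and stood in the order Nipponbare, GW6a-4.6, OsglHAT1-OE from high to low, with log2 changes of -0.35 (SE 0.12, adjusted p = 0.0133) in GW6a-4.6 and -0.77 (SE 0.12, adjusted p = 1.78e-06) in OsglHAT1-OE, and it was also lower in OsglHAT1-OE than in GW6a-4.6 (log2 change -0.42, SE 0.11, adjusted p = 0.00217). Its share of the α1 signal was 21.7% ± 2.05 (SD, n = 2) in Nipponbare, 14.7% ± 0.844 (n = 3) in GW6a-4.6 and 11.3% ± 0.981 (n = 3) in OsglHAT1-OE. The call of Os07t0614100-01 was lost in GW6a-4.6 without Nipponbare replicate 2 (adjusted p = 0.196).

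Both α2 loci were higher in the lines. At Os02t0634900-01 the signal was 226 and 239 in Nipponbare, 284, 285 and 287 in GW6a-4.6, and 269.9, 272 and 279.6 in OsglHAT1-OE. At Os03t0387100-01 it was 89.1 and 91.9 in Nipponbare, 135, 142 and 125 in GW6a-4.6, and 136, 144 and 138 in OsglHAT1-OE. No library of either line overlapped Nipponbare at either locus. The first rose by log2 changes of 0.30 (SE 0.07, adjusted p = 0.000409) in GW6a-4.6 and 0.24 (SE 0.07, adjusted p = 0.00317) in OsglHAT1-OE. The second rose by 0.56 (SE 0.08, adjusted p = 7.71e-07) and 0.61 (SE 0.08, adjusted p = 1.26e-07). Os02t0634900-01 no longer passed in OsglHAT1-OE without Nipponbare replicate 1 (adjusted p = 0.0591).

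The α3 subunit matched a pair of loci with near-equal values and a fragment. Os06t0176000-01 held 67.4 and 59.8 in Nipponbare, 60.1, 48 and 55.7 in GW6a-4.6, and 68.8, 64.4 and 67.5 in OsglHAT1-OE. Os06t0177100-01 held 64.5 and 54.7 in Nipponbare, 57.2, 46.5 and 56.2 in GW6a-4.6, and 67.9, 63.3 and 66.8 in OsglHAT1-OE. The second took 47.7% to 50.2% of their sum in every library, and since the deposited columns sum to more than reads counted once would give, reads that fit both loci may be counted at both. Neither passed against Nipponbare, with log2 changes of -0.22 (adjusted p = 0.0811) and -0.16 (adjusted p = 0.229) in GW6a-4.6 and 0.07 (adjusted p = 0.58) and 0.15 (adjusted p = 0.246) in OsglHAT1-OE. Between the lines both were higher in OsglHAT1-OE without overlap, by 0.29 (SE 0.09, adjusted p = 0.0139) and 0.31 (SE 0.10, adjusted p = 0.0119). The call of Os06t0176000-01 was lost between the lines without GW6a-4.6 replicate 2 or OsglHAT1-OE replicate 1 (adjusted p = 0.0545 to 0.102). Os06t0176000-01 did pass in GW6a-4.6 without GW6a-4.6 replicate 1 (adjusted p = 0.0247). Os06t0177100-01 no longer passed between the lines without GW6a-4.6 replicate 2 (adjusted p = 0.0926).

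Of the α4 loci, Os08t0548900-01 held 173 and 159.6 in Nipponbare, 173, 137 and 165 in GW6a-4.6, and 204, 190.0 and 169.5 in OsglHAT1-OE. It overlapped Nipponbare in both lines and passed in neither (log2 change -0.07, adjusted p = 0.515, and 0.17, adjusted p = 0.104). The other, Os09t0538200-01, held 75.6 and 70.3 in Nipponbare, 95.7, 85.4 and 94.9 in GW6a-4.6, and 115, 120.4 and 107 in OsglHAT1-OE. Its groups did not overlap, and it was 1.26-fold higher in GW6a-4.6 (log2 change 0.33, SE 0.09, adjusted p = 0.00258) and 1.56-fold in OsglHAT1-OE (log2 change 0.64, SE 0.09, adjusted p = 3.67e-07). Both α4 loci were higher in OsglHAT1-OE than in GW6a-4.6, the first by 0.25 (SE 0.08, adjusted p = 0.0156) with overlapping libraries, and the second by 0.31 (SE 0.08, adjusted p = 0.00263), without. The call of Os08t0548900-01 was lost between the lines without GW6a-4.6 replicate 2 or OsglHAT1-OE replicate 1 or 2 (adjusted p = 0.0563 to 0.152). Os08t0548900-01 did pass in OsglHAT1-OE without OsglHAT1-OE replicate 3 (adjusted p = 0.0326). The call of Os09t0538200-01 was lost in GW6a-4.6 without Nipponbare replicate 2 (adjusted p = 0.0528).

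The α5 subunit has a single matching locus, Os11t0615700-01, which had the smallest adjusted p of all core loci against Nipponbare in both lines. Its signal was 121 and 115 in Nipponbare, 196, 184 and 195 in GW6a-4.6, and 192, 199 and 203 in OsglHAT1-OE. All 6 libraries of the lines lay above both of Nipponbare, at 1.63-fold in GW6a-4.6 (log2 change 0.70, SE 0.07, adjusted p = 1.99e-09) and 1.68-fold in OsglHAT1-OE (log2 change 0.75, SE 0.07, adjusted p = 3.82e-10). The remaining alpha loci moved less. The α7 locus Os01t0811100-01 was higher in both lines (log2 change 0.20, adjusted p = 0.0149, and 0.29, adjusted p = 0.000824), as was Os05t0490800-01, annotated as an alpha subunit without a number (log2 change 0.40, adjusted p = 0.000117, and 0.42, adjusted p = 3.81e-05). The α6 locus Os02t0133800-01 and the α3 fragment Os06t0167600-01 passed in neither line against Nipponbare, with log2 changes of -0.10 (adjusted p = 0.336) and -0.06 (adjusted p = 0.632) in GW6a-4.6. Os01t0811100-01 no longer passed in GW6a-4.6 without Nipponbare replicate 2 (adjusted p = 0.133). Os02t0133800-01 no longer passed between the lines without OsglHAT1-OE replicate 3 (adjusted p = 0.0576). Os02t0133800-01 did pass in OsglHAT1-OE without Nipponbare replicate 1 (adjusted p = 0.0415). Os06t0167600-01 no longer passed between the lines without GW6a-4.6 replicate 2 or OsglHAT1-OE replicate 1 (adjusted p = 0.12 to 0.134). Os06t0167600-01 did pass in OsglHAT1-OE without GW6a-4.6 replicate 1 or 2 or OsglHAT1-OE replicate 3 (adjusted p = 0.0345 to 0.0495).

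The beta ring holds the proteolytic sites, and in eukaryotes β1, β2 and β5 cut after acidic, basic and hydrophobic residues respectively. The β5 locus Os06t0153800-01 had the highest mean signal of the core loci. Its signal was 393 and 383 in Nipponbare, 528, 503 and 487 in GW6a-4.6, and 533, 513 and 553 in OsglHAT1-OE. Both lines exceeded Nipponbare without overlap, by log2 changes of 0.38 (SE 0.06, adjusted p = 8.52e-06) in GW6a-4.6 and 0.46 (SE 0.06, adjusted p = 3.8e-07) in OsglHAT1-OE. Of the β1 loci, Os02t0770000-01 held 152 and 125 in Nipponbare, 175, 171 and 169 in GW6a-4.6, and 183, 175 and 192 in OsglHAT1-OE. The other, Os06t0139900-01, held 111 and 101 in Nipponbare, 130.0, 129 and 112 in GW6a-4.6, and 139, 133 and 157 in OsglHAT1-OE. Neither overlapped Nipponbare in either line. The first was higher by 0.31 (SE 0.08, adjusted p = 0.00168) and 0.41 (SE 0.08, adjusted p = 7.19e-05). The second was higher by 0.22 (SE 0.09, adjusted p = 0.0379) and 0.43 (SE 0.09, adjusted p = 0.000127) and also higher in OsglHAT1-OE than in GW6a-4.6 (log2 change 0.21, SE 0.08, adjusted p = 0.0381). The β2 locus Os05t0187000-01 did not pass in GW6a-4.6 (log2 change 0.16, adjusted p = 0.0561) and was higher in OsglHAT1-OE (log2 change 0.30, adjusted p = 0.000689). The call of Os02t0770000-01 was lost in GW6a-4.6 without Nipponbare replicate 2 (adjusted p = 0.135). Os06t0139900-01 no longer passed in GW6a-4.6 without Nipponbare replicate 2 or GW6a-4.6 replicate 1 or 2 (adjusted p = 0.0943 to 0.33) and between the lines without Nipponbare replicate 1 or 2, GW6a-4.6 replicate 3 or OsglHAT1-OE replicate 1 or 3 (adjusted p = 0.057 to 0.233). Os05t0187000-01 did pass in GW6a-4.6 without OsglHAT1-OE replicate 3 (adjusted p = 0.0372).

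The remaining beta subunits shape the inner rings and carry no active site. Of the β3 loci, Os06t0643100-01 held 152 and 146 in Nipponbare, 193, 190.1 and 191 in GW6a-4.6, and 201, 187 and 213 in OsglHAT1-OE. It was higher in both lines without overlap, by log2 changes of 0.36 (SE 0.07, adjusted p = 0.000145) and 0.43 (SE 0.07, adjusted p = 1.2e-05). At the other, Os02t0182500-01, the signal was 53.6 and 58.3 in Nipponbare, 66.9, 57.3 and 63.5 in GW6a-4.6, and 62.7, 65.9 and 67.6 in OsglHAT1-OE. It passed in neither line (log2 change 0.16, adjusted p = 0.198, and 0.22, adjusted p = 0.059). The β7 locus Os09t0515200-01 held 164 and 161 in Nipponbare, 229.6, 233 and 223 in GW6a-4.6, and 212, 210.4 and 226 in OsglHAT1-OE. Both lines lay above Nipponbare there, by 0.49 (SE 0.07, adjusted p = 8.34e-07) and 0.41 (SE 0.07, adjusted p = 1.04e-05). The β4 locus Os03t0695600-01 did not pass in GW6a-4.6 (log2 change 0.18, adjusted p = 0.0738), was higher in OsglHAT1-OE than in Nipponbare (log2 change 0.36, adjusted p = 0.000357), and was higher than in GW6a-4.6 too (log2 change 0.19, adjusted p = 0.0432). Os02t0182500-01 did pass in OsglHAT1-OE without GW6a-4.6 replicate 1 or 2 (adjusted p = 0.0444 to 0.0476). Os03t0695600-01 no longer passed between the lines without Nipponbare replicate 1 or 2, GW6a-4.6 replicate 2 or 3 or OsglHAT1-OE replicate 2 or 3 (adjusted p = 0.059 to 0.212). Os03t0695600-01 did pass in GW6a-4.6 without GW6a-4.6 replicate 2 (adjusted p = 0.0238).

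Both β6 loci were higher in GW6a-4.6, and in OsglHAT1-OE one was higher and the other lower. The main one, Os09t0505600-01, held 200.2 and 209 in Nipponbare, 279, 236 and 272 in GW6a-4.6, and 260.1, 295 and 279 in OsglHAT1-OE, and was higher in both lines without overlap (log2 change 0.35, SE 0.08, adjusted p = 0.00027, and 0.44, SE 0.08, adjusted p = 1.33e-05). The minor one, Os08t0529100-01, had the lowest mean of the core loci. It held 6.17 and 8.03 in Nipponbare, 9.79, 13.5 and 13 in GW6a-4.6, and 3.83, 4.18 and 4.30 in OsglHAT1-OE, from 25 to 76 reads a library. GW6a-4.6 was the highest group and OsglHAT1-OE the lowest, with no overlap between any groups. The log2 changes were 0.69 (SE 0.24, adjusted p = 0.0163) in GW6a-4.6, -0.66 (SE 0.24, adjusted p = 0.0198) in OsglHAT1-OE, and -1.35 (SE 0.21, adjusted p = 7.7e-06) between the lines. Its share of the β6 signal was 3.35% ± 0.507 (SD, n = 2) in Nipponbare, 4.46% ± 1.02 (n = 3) in GW6a-4.6 and 1.46% ± 0.0603 (n = 3) in OsglHAT1-OE. The call of Os08t0529100-01 was lost in GW6a-4.6 without Nipponbare replicate 1 or GW6a-4.6 replicate 2 or 3 (adjusted p = 0.0548 to 0.158) and in OsglHAT1-OE without Nipponbare replicate 2 (adjusted p = 0.176).

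Of 10 RPT loci, the ATPases of the base, covering RPT1 to RPT5 with a pair each, 1 was higher and 4 lower in GW6a-4.6, beside 25.4% and 25.1% of all loci. In OsglHAT1-OE 4 were higher and 2 lower, beside 27.6% and 28.3%, and with 10 loci these counts are read as a description only. No matching annotation named RPT6, and no locus was assigned to RPN1, so the 29 regulatory loci do not cover the whole particle. RPT2, whose C terminus helps open the gate of the core, was the ATPase with higher calls at both loci in OsglHAT1-OE. At Os03t0298400-01 the signal was 219.8 and 220.4 in Nipponbare, 220.0, 244 and 242 in GW6a-4.6, and 253, 256 and 297 in OsglHAT1-OE, with a log2 change of 0.28 (SE 0.08, adjusted p = 0.00205) in OsglHAT1-OE and 0.10 (adjusted p = 0.306) in GW6a-4.6. At Os07t0691800-01 it was 267 and 269.7 in Nipponbare, 337, 342 and 332 in GW6a-4.6, and 332, 341 and 373 in OsglHAT1-OE, higher in GW6a-4.6 by 0.33 (SE 0.07, adjusted p = 0.00015) and in OsglHAT1-OE by 0.37 (SE 0.07, adjusted p = 2.04e-05). OsglHAT1-OE did not overlap Nipponbare at either locus, and GW6a-4.6 overlapped it at the first. The call of Os03t0298400-01 was lost between the lines without Nipponbare replicate 1 or 2, GW6a-4.6 replicate 1 or OsglHAT1-OE replicate 3 (adjusted p = 0.0533 to 0.199).

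RPT4 was lower at both loci in both lines. The rescaled signal of Os02t0199900-01 was 323 and 335 in Nipponbare, 268, 267 and 267 in GW6a-4.6, and 269, 288 and 315 in OsglHAT1-OE. That of Os06t0607800-01 was 63.7 and 63.3 in Nipponbare, 52.2, 54.4 and 51.7 in GW6a-4.6, and 51.8, 46.7 and 53.3 in OsglHAT1-OE. Neither line overlapped Nipponbare. The first was lower by log2 changes of -0.30 (SE 0.07, adjusted p = 0.000696) and -0.18 (SE 0.07, adjusted p = 0.0314) and the second by -0.26 (SE 0.10, adjusted p = 0.0324) and -0.32 (SE 0.10, adjusted p = 0.00816). The call of Os02t0199900-01 was lost in OsglHAT1-OE without Nipponbare replicate 1 or 2 or OsglHAT1-OE replicate 1 or 2 (adjusted p = 0.0697 to 0.184). Os06t0607800-01 no longer passed in GW6a-4.6 without Nipponbare replicate 1 or 2 or GW6a-4.6 replicate 1 or 3 (adjusted p = 0.0529 to 0.112) and in OsglHAT1-OE without OsglHAT1-OE replicate 2 (adjusted p = 0.051).

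Of the RPT1 loci, 1 was lower in GW6a-4.6 and the other was higher in OsglHAT1-OE. Os06t0192600-01 held 258 and 249.7 in Nipponbare, 228, 221 and 222 in GW6a-4.6, and 264, 273 and 284 in OsglHAT1-OE. It was lower in GW6a-4.6 without overlap (log2 change -0.18, SE 0.07, adjusted p = 0.0255), did not pass in OsglHAT1-OE (log2 change 0.11, adjusted p = 0.18), and was higher in OsglHAT1-OE than in GW6a-4.6 (log2 change 0.29, SE 0.06, adjusted p = 0.000307). The other, Os02t0784700-00, held 93.4 and 88.3 in Nipponbare, 106, 95.9 and 95 in GW6a-4.6, and 109, 109 and 116 in OsglHAT1-OE. It lay above Nipponbare in every library of both lines and passed in OsglHAT1-OE (log2 change 0.29, SE 0.09, adjusted p = 0.00453) but not in GW6a-4.6 (log2 change 0.12, adjusted p = 0.237). The call of Os06t0192600-01 was lost in GW6a-4.6 without Nipponbare replicate 1 or 2 or GW6a-4.6 replicate 2 or 3 (adjusted p = 0.0537 to 0.141). Os02t0784700-00 no longer passed in OsglHAT1-OE without Nipponbare replicate 2 (adjusted p = 0.0648). Os02t0784700-00 did pass between the lines without GW6a-4.6 replicate 1 (adjusted p = 0.029).

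RPT3 was carried almost wholly by Os02t0325100-01, with 245 and 257 in Nipponbare, 224, 251 and 221 in GW6a-4.6, and 281, 278 and 318 in OsglHAT1-OE. GW6a-4.6 overlapped Nipponbare (log2 change -0.12, adjusted p = 0.199), and OsglHAT1-OE was higher than Nipponbare (log2 change 0.21, SE 0.07, adjusted p = 0.0158) and than GW6a-4.6 (log2 change 0.33, SE 0.07, adjusted p = 0.000207). Its partner Os09t0560200-01 held 6.17 and 3.44 in Nipponbare, 4.05, 4.01 and 5.14 in GW6a-4.6, and 3.83, 3.13 and 1.72 in OsglHAT1-OE, from 10 to 42 reads, and passed in no comparison. For RPT5, Os02t0803700-01 held 189 and 182 in Nipponbare, 174, 170.0 and 169.9 in GW6a-4.6, and 165, 179 and 195 in OsglHAT1-OE, and passed in no comparison. The other RPT5 locus, Os06t0173100-01, held 137 and 146 in Nipponbare, 121, 125 and 119.5 in GW6a-4.6, and 118, 131 and 131 in OsglHAT1-OE. It was lower in GW6a-4.6 without overlap (log2 change -0.21, SE 0.08, adjusted p = 0.0276) and did not pass in OsglHAT1-OE (log2 change -0.16, adjusted p = 0.0954). The call of Os02t0325100-01 was lost in OsglHAT1-OE without Nipponbare replicate 1 or 2 or OsglHAT1-OE replicate 3 (adjusted p = 0.0525 to 0.163). Os09t0560200-01 did pass in OsglHAT1-OE without Nipponbare replicate 2 (adjusted p = 0.0459). The call of Os06t0173100-01 was lost in GW6a-4.6 without Nipponbare replicate 2 or GW6a-4.6 replicate 3 (adjusted p = 0.0772 to 0.195).

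RPN2, the large scaffold of the base, had the highest mean signal of the regulatory loci at Os04t0608500-01. Its signal was 493 and 499 in Nipponbare, 401, 458 and 418 in GW6a-4.6, and 515, 552 and 538 in OsglHAT1-OE. GW6a-4.6 lay below Nipponbare and OsglHAT1-OE above it, without overlap. The change passed in GW6a-4.6 (log2 change -0.22, SE 0.07, adjusted p = 0.00622), did not in OsglHAT1-OE (log2 change 0.11, adjusted p = 0.164), and passed between the lines (log2 change 0.33, SE 0.06, adjusted p = 4.71e-05). The other RPN2 locus, Os08t0224700-01, held 279 and 283 in Nipponbare, 232, 296 and 293 in GW6a-4.6, and 305, 306 and 337 in OsglHAT1-OE. It passed in neither line against Nipponbare (log2 change -0.05, adjusted p = 0.669, and 0.17, adjusted p = 0.0876) and was higher in OsglHAT1-OE than in GW6a-4.6 (log2 change 0.21, SE 0.07, adjusted p = 0.0233). The call of Os04t0608500-01 was lost in GW6a-4.6 without Nipponbare replicate 2 (adjusted p = 0.0628). Os08t0224700-01 no longer passed between the lines without Nipponbare replicate 1 or 2, GW6a-4.6 replicate 1 or OsglHAT1-OE replicate 3 (adjusted p = 0.0573 to 0.224). Os08t0224700-01 did pass in OsglHAT1-OE without GW6a-4.6 replicate 1 (adjusted p = 0.0213).

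Of the 15 lid loci, 3 were higher and 1 lower in GW6a-4.6, where 25.4% and 25.1% of all loci were, so the higher count is not above the background. In OsglHAT1-OE 7 were higher and none lower, beside 27.6% and 28.3% of all loci. The lower count in OsglHAT1-OE was also 0 at an unadjusted p under 0.05 and with edgeR or DESeq2. RPN12, a lid subunit whose Arabidopsis mutant has altered cytokinin responses, was higher in both lines at its single locus Os07t0435100-01. Its signal was 258 and 253 in Nipponbare, 320.4, 309 and 314 in GW6a-4.6, and 323, 337 and 353 in OsglHAT1-OE. No library of the lines overlapped Nipponbare, and the log2 changes were 0.30 (SE 0.07, adjusted p = 0.000386) and 0.40 (SE 0.07, adjusted p = 6.68e-06). RPN7 was higher at the larger loci of its 3. At Os04t0485000-01 the signal was 157 and 169 in Nipponbare, 201, 177 and 204 in GW6a-4.6, and 222, 209 and 219 in OsglHAT1-OE. At Os02t0600100-01 it was 29.2 and 24.1 in Nipponbare, 36.1, 29.5 and 37.2 in GW6a-4.6, and 33.4, 36.3 and 37.9 in OsglHAT1-OE. Both lay above Nipponbare in every library of the lines. The first was higher by 0.25 (SE 0.08, adjusted p = 0.00718) and 0.41 (SE 0.08, adjusted p = 3.25e-05) and the second by 0.35 (SE 0.13, adjusted p = 0.0306) and 0.42 (SE 0.13, adjusted p = 0.00907). The RPN7 locus Os01t0974900-00 held only 2 to 14 reads a library and passed in no comparison. The call of Os04t0485000-01 was lost in GW6a-4.6 without Nipponbare replicate 1 (adjusted p = 0.114). Os04t0485000-01 did pass between the lines without GW6a-4.6 replicate 1 (adjusted p = 0.0353). Os02t0600100-01 no longer passed in GW6a-4.6 without Nipponbare replicate 2 or GW6a-4.6 replicate 1 or 3 (adjusted p = 0.0761 to 0.315) and in OsglHAT1-OE without Nipponbare replicate 2 (adjusted p = 0.172). Os01t0974900-00 did pass in GW6a-4.6 without Nipponbare replicate 2 (adjusted p = 0.0397).

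RPN3 and RPN6 have a pair of loci each. For RPN3, Os08t0550100-01 held 219.6 and 228 in Nipponbare, 193, 208 and 191 in GW6a-4.6, and 234, 224 and 241 in OsglHAT1-OE, and was lower in GW6a-4.6 without overlap (log2 change -0.18, SE 0.07, adjusted p = 0.032). At Os09t0541900-02 the signal was 113 and 118 in Nipponbare, 122, 133 and 121 in GW6a-4.6, and 145, 143 and 154 in OsglHAT1-OE. It lay above Nipponbare in every library of the lines, and passed in OsglHAT1-OE (log2 change 0.34, SE 0.08, adjusted p = 0.000471) but not in GW6a-4.6 (log2 change 0.11, adjusted p = 0.241). Of the RPN6 loci, Os04t0444600-01 held 255 and 259 in Nipponbare, 236, 251 and 237 in GW6a-4.6, and 291, 298 and 329.7 in OsglHAT1-OE. It did not pass in GW6a-4.6 (log2 change -0.09, adjusted p = 0.29) and was higher in OsglHAT1-OE than in Nipponbare (log2 change 0.25, SE 0.07, adjusted p = 0.00333). Its minor partner Os03t0576400-00 held 25.4 and 26.6 in Nipponbare, 19.4, 23.3 and 19.9 in GW6a-4.6, and 26.7, 28.2 and 26.2 in OsglHAT1-OE, and passed in neither line against Nipponbare (log2 change -0.31, adjusted p = 0.0772, and 0.05, adjusted p = 0.775). The call of Os08t0550100-01 was lost in GW6a-4.6 without Nipponbare replicate 1 or 2 or GW6a-4.6 replicate 1 or 3 (adjusted p = 0.0562 to 0.179). Os09t0541900-02 no longer passed between the lines without GW6a-4.6 replicate 3 or OsglHAT1-OE replicate 3 (adjusted p = 0.0529 to 0.0552). The call of Os03t0576400-00 was lost between the lines without GW6a-4.6 replicate 1 or 3 or OsglHAT1-OE replicate 1 or 2 (adjusted p = 0.0588 to 0.0923). Os03t0576400-00 did pass in GW6a-4.6 without GW6a-4.6 replicate 2 (adjusted p = 0.0392).

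RPN11 removes ubiquitin chains from substrates at the entry of the pore. At Os01t0267200-01, its largest locus, the signal was 262 and 263 in Nipponbare, 261, 259 and 274 in GW6a-4.6, and 265, 263 and 255 in OsglHAT1-OE. All groups overlapped and no change passed (log2 change 0.01, SE 0.07, adjusted p = 0.901, and -0.01, SE 0.07, adjusted p = 0.917). At Os05t0371200-01 it was 199 and 189 in Nipponbare, 182, 183 and 181 in GW6a-4.6, and 236, 220.4 and 239.9 in OsglHAT1-OE. GW6a-4.6 lay below Nipponbare without passing (log2 change -0.09, adjusted p = 0.293), and OsglHAT1-OE was higher than Nipponbare (log2 change 0.26, SE 0.07, adjusted p = 0.00285) and than GW6a-4.6 (log2 change 0.35, SE 0.06, adjusted p = 5.9e-05). The share of this locus in the RPN11 signal was 42.1% ± 1.06 (SD, n = 2), 40.5% ± 1 (n = 3) and 46.7% ± 1.44 (n = 3) in Nipponbare, GW6a-4.6 and OsglHAT1-OE. Os06t0703600-01, the minor RPN11 locus, held 3.52 and 3.82 in Nipponbare, 1.52, 2.92 and 4.45 in GW6a-4.6, and 3.39, 3.92 and 3.61 in OsglHAT1-OE, from 9 to 30 reads, and passed in no comparison. The call of Os05t0371200-01 was lost in OsglHAT1-OE without Nipponbare replicate 2 (adjusted p = 0.0572).

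RPN10 is a receptor for ubiquitin chains that can also exist free of the complex. Its main locus Os03t0243300-01 held 355 and 359 in Nipponbare, 380.2, 386 and 359 in GW6a-4.6, and 383, 402 and 397 in OsglHAT1-OE. Both lines lay above Nipponbare, by log2 changes that did not pass (log2 change 0.07, SE 0.06, adjusted p = 0.364, and 0.14, SE 0.06, adjusted p = 0.0573). The minor locus Os10t0141400-00 had the lowest mean of the regulatory loci, with 4 and 0 reads in Nipponbare, 6, 10 and 8 in GW6a-4.6, and 4, 6 and 0 in OsglHAT1-OE. It passed with limma in GW6a-4.6 (adjusted p = 0.0315) and missed with edgeR (adjusted p = 0.0762) and DESeq2 (adjusted p = 0.13), so the call is at the floor of detection. The RPN9 locus Os03t0214600-01 was higher in OsglHAT1-OE (log2 change 0.33, adjusted p = 0.000523) and not in GW6a-4.6 (log2 change 0.08, adjusted p = 0.433). RPN5 (Os03t0851300-04), RPN8 (Os04t0661900-01) and DSS1 (Os01t0273000-01) passed in neither line, with log2 changes of -0.08, -0.01 and 0.01 in GW6a-4.6 and -0.07, 0.16 and 0.08 in OsglHAT1-OE. Os03t0243300-01 did pass in OsglHAT1-OE without GW6a-4.6 replicate 1 (adjusted p = 0.0332). Os10t0141400-00 no longer passed in GW6a-4.6 without Nipponbare replicate 2 or GW6a-4.6 replicate 2 or 3 (adjusted p = 0.054 to 0.299). Os04t0661900-01 did pass in OsglHAT1-OE without OsglHAT1-OE replicate 1 (adjusted p = 0.00937) and between the lines without OsglHAT1-OE replicate 1 (adjusted p = 0.00721). Os01t0273000-01 did pass between the lines without GW6a-4.6 replicate 1 (adjusted p = 0.0392).

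Subunits with several loci allowed a comparison that no single factor per library can move, the share of each locus in the signal of its subunit. There were 18 such subunits and 20 shares of minor loci. Reads that fit several loci of a subunit may be counted at each, and a share then need not follow the true split. That may hold for α3, whose share is among those counted here. The groups did not overlap for 11 shares in GW6a-4.6 against Nipponbare, 11 in OsglHAT1-OE against Nipponbare and 9 between the lines. Among all loci tested, the rescaled signals of the groups did not overlap for 64.5%, 70.3% and 47.0% in these comparisons. Those are signals of single loci and not shares, so they give no like background. The counts of shares are thus read as a description only. No share could pass a threshold of 0.05 in an exact permutation test, whose smallest p was 0.1. The following were chosen after their values were seen. For α4 the share of Os09t0538200-01 was 30.5% ± 0.0826 (SD, n = 2) in Nipponbare, 36.8% ± 1.47 (n = 3) in GW6a-4.6 and 37.8% ± 1.58 (n = 3) in OsglHAT1-OE. For RPN3 the share of Os09t0541900-02 was 34.1% ± 0.0599, 38.9% ± 0.19 and 38.8% ± 0.442 in the same order, and for RPT1 that of Os02t0784700-00 was 26.4% ± 0.316, 30.7% ± 1.01 and 28.9% ± 0.339.

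**Figure D3:**
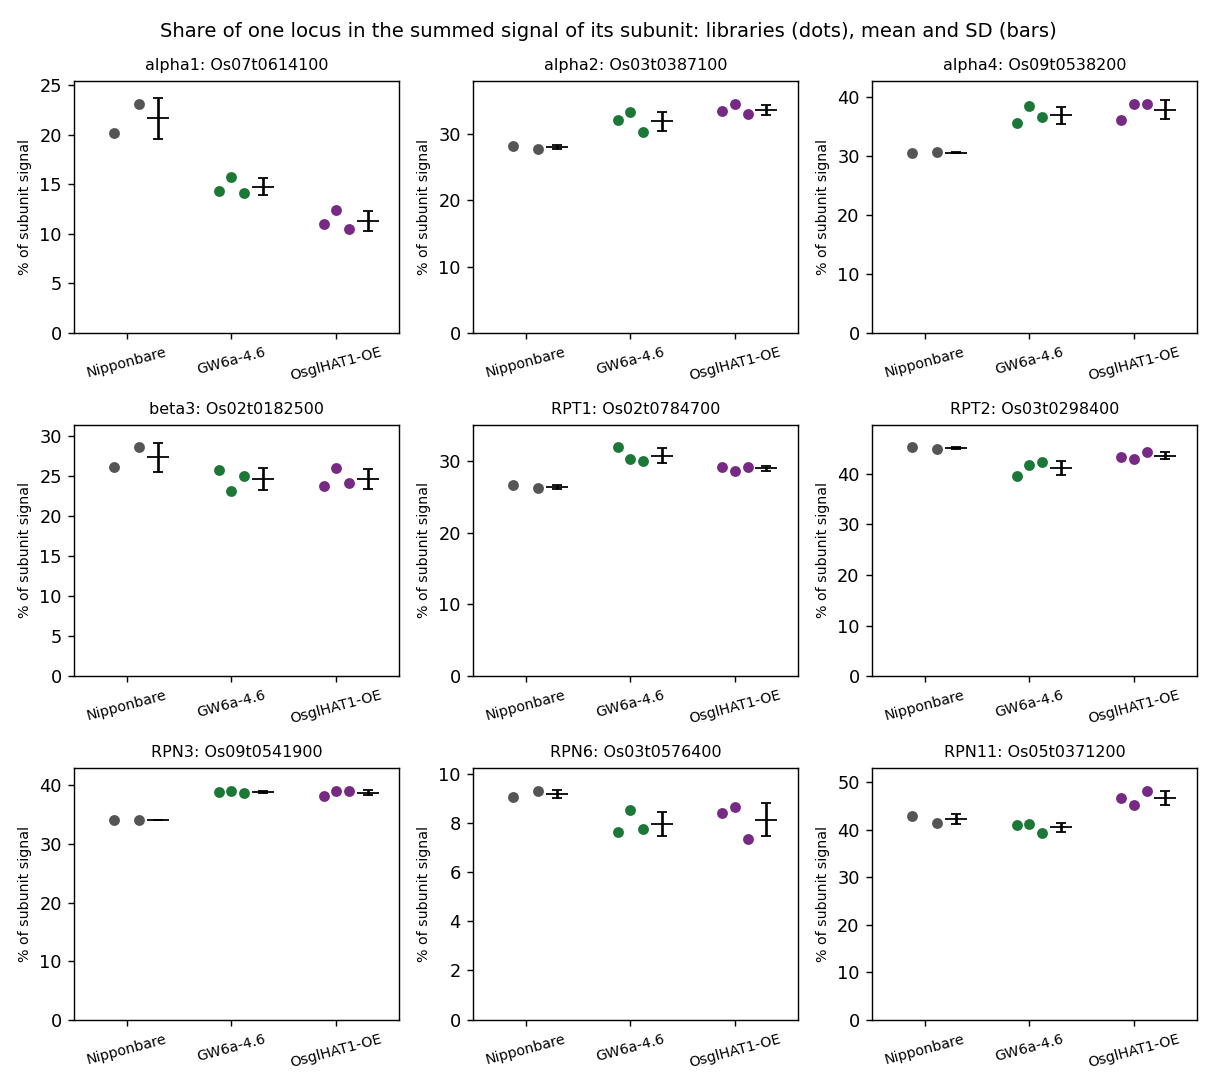
Share of one locus in the summed rescaled signal of its subunit (percent, vertical axes from 0), per library, for the 9 shares in which each line did not overlap Nipponbare; dots are libraries and bars mean and SD (n = 2, 3 and 3). The share of Os07t0614100 in α1 falls from Nipponbare to GW6a-4.6 to OsglHAT1-OE, and that of Os09t0541900 in RPN3 is higher in both lines.

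Between the lines, calls in the regulatory particle were all in the direction of OsglHAT1-OE and those in the core were in both directions. In OsglHAT1-OE against GW6a-4.6, 11 of 29 regulatory loci were higher and 0 lower, and 8 of 23 core loci were higher and 2 lower, beside 18.7% of all loci called higher and 18.6% lower. The 8 higher core loci included both α3 loci, which may share reads. Those calls may not be independent, and such reads would enter the core sum at both loci. The regulatory count of 0 lower was 1 at an unadjusted p under 0.05, and 0 with edgeR and DESeq2. The median log2 change was 0.16 for regulatory, 0.08 for core and 0.01 for all loci. The regulatory loci with the smallest adjusted p were RPN2 Os04t0608500-01, RPN11 Os05t0371200-01 and RPN6 Os04t0444600-01, the last at 0.34 (SE 0.06, adjusted p = 6.89e-05). This comparison depended on scaling, and without rescaling the 11 higher regulatory calls became 1 and the 8 higher core calls became 0. Without rescaling the median of all loci shifted to -0.13, and 2422 loci were called higher and 7787 lower, against 5889 and 5856 with it. Relative to the median of all loci, the regulatory median was 0.15 with rescaling, 0.14 without and 0.00 after quantile normalization, and the core median was 0.07, 0.06 and -0.08. The 8 higher core calls became 3 without GW6a-4.6 replicate 2, 4 without OsglHAT1-OE replicate 1 and 5 without OsglHAT1-OE replicate 3.

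Loci outside the particles fell into small groups. UMP1 and the assembly chaperones guide the building of the core. Of 5 assembly loci, 2 were higher and 0 lower in GW6a-4.6, and 1 was higher and 0 lower in OsglHAT1-OE. Over all loci tested, 25.4% were higher and 25.1% lower in GW6a-4.6, and 27.6% and 28.3% in OsglHAT1-OE. With 5 loci these counts do not stand apart from those shares. An assembly chaperone 3 locus, Os01t0339600-01, held 4.40 and 6.50 in Nipponbare, 13.3, 9.30 and 9.25 in GW6a-4.6, and 12.5, 9.66 and 8.09 in OsglHAT1-OE, from at least 30 reads a library. It lay above Nipponbare in both lines, by log2 changes of 0.85 (SE 0.24, adjusted p = 0.00388) and 0.78 (SE 0.24, adjusted p = 0.00664). The main UMP1 locus Os02t0800100-01 held 119 and 134 in Nipponbare, 160.0, 142 and 140.4 in GW6a-4.6, and 141, 144 and 134 in OsglHAT1-OE, and was higher in GW6a-4.6 (log2 change 0.22, SE 0.08, adjusted p = 0.0271) but did not pass in OsglHAT1-OE (log2 change 0.14, adjusted p = 0.142). The other assembly loci, Os03t0583700-00, Os09t0314900-00 and Os10t0395500-01, passed in no comparison. Of the 0 lower counts, none changed at an unadjusted p under 0.05 or with edgeR or DESeq2. The call of Os02t0800100-01 was lost in GW6a-4.6 without Nipponbare replicate 1 or GW6a-4.6 replicate 1 (adjusted p = 0.108 to 0.303). Os01t0339600-01 no longer passed in GW6a-4.6 without Nipponbare replicate 1 (adjusted p = 0.105) and in OsglHAT1-OE without Nipponbare replicate 1 (adjusted p = 0.141).

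PCI domains occur in the proteasome lid, the COP9 signalosome and the initiation factor eIF3, and the annotation does not say to which of these the 3 PCI loci belong. Os01t0511300-01 was higher in OsglHAT1-OE than in Nipponbare (log2 change 0.34, SE 0.08, adjusted p = 0.000339) and than in GW6a-4.6 (log2 change 0.23, adjusted p = 0.00702). Os04t0103200-01 was higher in OsglHAT1-OE too, at the threshold against Nipponbare (log2 change 0.15, SE 0.07, adjusted p = 0.0495) and further from it against GW6a-4.6 (log2 change 0.27, adjusted p = 0.000448), and Os09t0386400-01 passed in no comparison. The proteasome/cyclosome domain, a repeat found in the largest base subunits and in the anaphase-promoting complex, marked Os06t0699900-01. Its signal was 318 and 329 in Nipponbare, 231, 251 and 245 in GW6a-4.6, and 259, 249 and 265 in OsglHAT1-OE. Both lines lay below Nipponbare without overlap (log2 change -0.41, SE 0.07, adjusted p = 7.09e-06, and -0.33, SE 0.07, adjusted p = 0.000151). Of the loci matched by text alone, the P20Sh148J07 locus Os01t0212100-02 was higher in GW6a-4.6 (log2 change 0.63, adjusted p = 0.0001) and the methyltransferase locus Os09t0307800-02 passed in no comparison. The call of Os04t0103200-01 was lost in OsglHAT1-OE without Nipponbare replicate 1 or 2, GW6a-4.6 replicate 3 or OsglHAT1-OE replicate 1, 2 or 3 (adjusted p = 0.0549 to 0.249).

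The ubiquitin system upstream of the proteasome was covered in part, by 148 tested loci of 161 in 8 annotation lists. For E3 ligases only SKP1 and cullin loci were listed, so other E3 proteins were not examined. In GW6a-4.6 against Nipponbare 22 were higher (14.9%) and 48 lower (32.4%), beside 25.4% and 25.1% of all loci tested. In OsglHAT1-OE 36 were higher (24.3%) and 43 lower (29.1%), close to the 27.6% and 28.3% of all loci. Ubiquitin itself, the tag that marks substrates, was mostly lower. Of 14 tested ubiquitin and polyubiquitin loci, 0 were higher and 11 lower in GW6a-4.6, with a median log2 change of -0.51, and 3 were higher and 10 lower in OsglHAT1-OE, with a median of -0.55. No such locus was higher in GW6a-4.6 at an unadjusted p under 0.05 or with edgeR or DESeq2 either. The polyubiquitin locus Os04t0628100-02 held 1286 and 1216 in Nipponbare, 431, 426 and 425 in GW6a-4.6, and 383, 403 and 454 in OsglHAT1-OE. All libraries of the lines lay below both of Nipponbare, with log2 changes of -1.55 (SE 0.07, adjusted p = 4.07e-18) and -1.60 (SE 0.07, adjusted p = 1.3e-18). A ubiquitin/ribosomal fusion locus, Os09t0483400-01, held 497 and 483 in Nipponbare, 94.9, 85 and 93.2 in GW6a-4.6, and 84.8, 85.4 and 90.7 in OsglHAT1-OE, and was lower by log2 changes of -2.42 (SE 0.08, adjusted p = 2.17e-21) and -2.48 (SE 0.08, adjusted p = 9.01e-22). Ubiquitin repeats are nearly identical between loci, so these loci may share reads and their count is not one of independent loci.

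Calls among the listed loci that act in attaching ubiquitin stood near the background or rested on few loci. That background was 25.4% higher and 25.1% lower in GW6a-4.6 and 27.6% and 28.3% in OsglHAT1-OE. E1 enzymes activate ubiquitin, and of 7 tested loci 1 was higher and 3 lower in GW6a-4.6 and 3 higher and 1 lower in OsglHAT1-OE. Os11t0106400-01, an E1 locus, was lower in GW6a-4.6 (log2 change -0.19, adjusted p = 0.0373) and higher in OsglHAT1-OE (log2 change 0.22, adjusted p = 0.0142), while the E1 locus Os07t0692900-01 was lower in both (log2 change -0.69, adjusted p = 1.05e-06, and -0.52, adjusted p = 6.31e-05). E2 enzymes carry it to substrates, and of 32 tested loci 9 were higher (28.1%) and 7 lower (21.9%) in GW6a-4.6 and 11 higher (34.4%) and 9 lower (28.1%) in OsglHAT1-OE. The E2 locus Os01t0273100-01 held 17.6 and 16.1 in Nipponbare, 81, 65.7 and 74.7 in GW6a-4.6, and 63.9, 64.8 and 69.3 in OsglHAT1-OE, and was higher in both lines without overlap (log2 change 2.06, SE 0.11, adjusted p = 6.07e-16, and 1.91, SE 0.11, adjusted p = 2.86e-15). OsUBC5b, at Os02t0261100-01, was lower in GW6a-4.6 (log2 change -0.76, adjusted p = 4.61e-09) and in OsglHAT1-OE (0.496 times Nipponbare, adjusted p = 9.37e-12). Of 17 SKP1 and cullin loci, scaffolds of E3 ligases, 3 were higher and 6 lower in GW6a-4.6 and 4 higher and 5 lower in OsglHAT1-OE. The cullin locus Os01t0935300-02 was lower in GW6a-4.6 (log2 change -0.99, adjusted p = 1.47e-06) and did not pass in OsglHAT1-OE (log2 change 0.24, adjusted p = 0.163), and the cullin neddylation locus Os07t0631000-01 was higher in both (log2 change 0.65, adjusted p = 6.84e-08, and 0.23, adjusted p = 0.0145).

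Deubiquitinases recycle ubiquitin, and of 57 tested loci 7 were higher (12.3%) and 15 lower (26.3%) in GW6a-4.6 and 11 higher (19.3%) and 13 lower (22.8%) in OsglHAT1-OE. The lower share in GW6a-4.6 is close to the 25.1% of all loci, and the others lie under the shares of all loci, 25.4% higher in GW6a-4.6 and 27.6% higher and 28.3% lower in OsglHAT1-OE. The 15 lower became 8 without Nipponbare replicate 2. Os06t0184300-01, a ubiquitin carboxyl-terminal hydrolase, held 797 and 811 in Nipponbare, 1250.3, 1353 and 1334 in GW6a-4.6, and 1512, 1543 and 1736 in OsglHAT1-OE. It was higher in both lines without overlap (log2 change 0.71, SE 0.06, adjusted p = 1.31e-10, and 0.99, SE 0.06, adjusted p = 4.67e-14). The otubain-domain locus Os01t0900900-01 was higher in both as well (log2 change 1.98, adjusted p = 8.97e-13, and 1.81, adjusted p = 4.89e-12). CDC48, the ATPase that extracts ubiquitinated proteins from complexes for the proteasome, had 2 of 5 loci lower in GW6a-4.6 and 3 lower in OsglHAT1-OE, and none higher by limma, at an unadjusted p under 0.05, or by edgeR or DESeq2. The 3 lower became 1 without Nipponbare replicate 1 or OsglHAT1-OE replicate 1. The CDC48 homolog A locus Os03t0151800-02 held 997 and 1004 in Nipponbare, 582, 691 and 632 in GW6a-4.6, and 650.5, 648 and 724 in OsglHAT1-OE. Both lines lay below Nipponbare (log2 change -0.66, SE 0.07, adjusted p = 2.31e-09, and -0.57, SE 0.07, adjusted p = 2.86e-08), as they did at Os10t0442600-01 (log2 change -0.34, adjusted p = 8.57e-05, and -0.18, adjusted p = 0.0183).

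Shuttle factors deliver ubiquitinated proteins to RPN10 and other receptors. Of 11 loci, 2 were higher and 3 lower in GW6a-4.6 and 3 higher and 2 lower in OsglHAT1-OE. These counts, like those of CDC48 and COP9, rest on too few loci to stand apart from the 25.4% higher and 25.1% lower, and 27.6% and 28.3%, of all loci. An OsRAD23-like locus, Os07t0278866-00, held 64.9 and 68.8 in Nipponbare, 5.23, 7.66 and 6.51 in GW6a-4.6, and 6.92, 5.61 and 5.33 in OsglHAT1-OE. The lines lay far below Nipponbare there, by log2 changes of -3.20 (SE 0.21, adjusted p = 4.15e-14) and -3.29 (SE 0.21, adjusted p = 1.43e-14). The ubiquilin locus Os03t0131300-01 was lower in both as well (log2 change -0.44, adjusted p = 1.7e-05, and -0.33, adjusted p = 0.000443). Of 5 COP9 signalosome loci, which encode a complex related to the lid, 1 was lower in GW6a-4.6 and 1 higher in OsglHAT1-OE. The subunit 6a locus Os08t0500000-01 was the lower one (log2 change -0.28, adjusted p = 0.00797), and the subunit 5b locus Os04t0654700-02 passed in neither line against Nipponbare (log2 change -0.09, adjusted p = 0.432, and 0.19, adjusted p = 0.0684). Counts of the short lists moved by over 1.5 times when single libraries were left out. The 3 lower E1 loci in GW6a-4.6 became 1 without Nipponbare replicate 1, Nipponbare replicate 2 or GW6a-4.6 replicate 1, and the 3 higher in OsglHAT1-OE became 1 without Nipponbare replicate 1 or OsglHAT1-OE replicate 3. The E2 counts in OsglHAT1-OE became 6 higher without Nipponbare replicate 1 and 7 without OsglHAT1-OE replicate 2, and 5 lower without Nipponbare replicate 1, Nipponbare replicate 2 or OsglHAT1-OE replicate 2. The SKP1 and cullin counts in OsglHAT1-OE became 2 higher and 3 lower without Nipponbare replicate 1. Of the shuttle factors, the 2 higher in GW6a-4.6 became 1 without GW6a-4.6 replicate 3 or either Nipponbare replicate, and the 3 higher in OsglHAT1-OE became 1 without OsglHAT1-OE replicate 1 or 2. The lower COP9 call in GW6a-4.6 was lost without Nipponbare replicate 1, and the higher one in OsglHAT1-OE without Nipponbare replicate 1, Nipponbare replicate 2 or OsglHAT1-OE replicate 1.

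**Figure D4:**
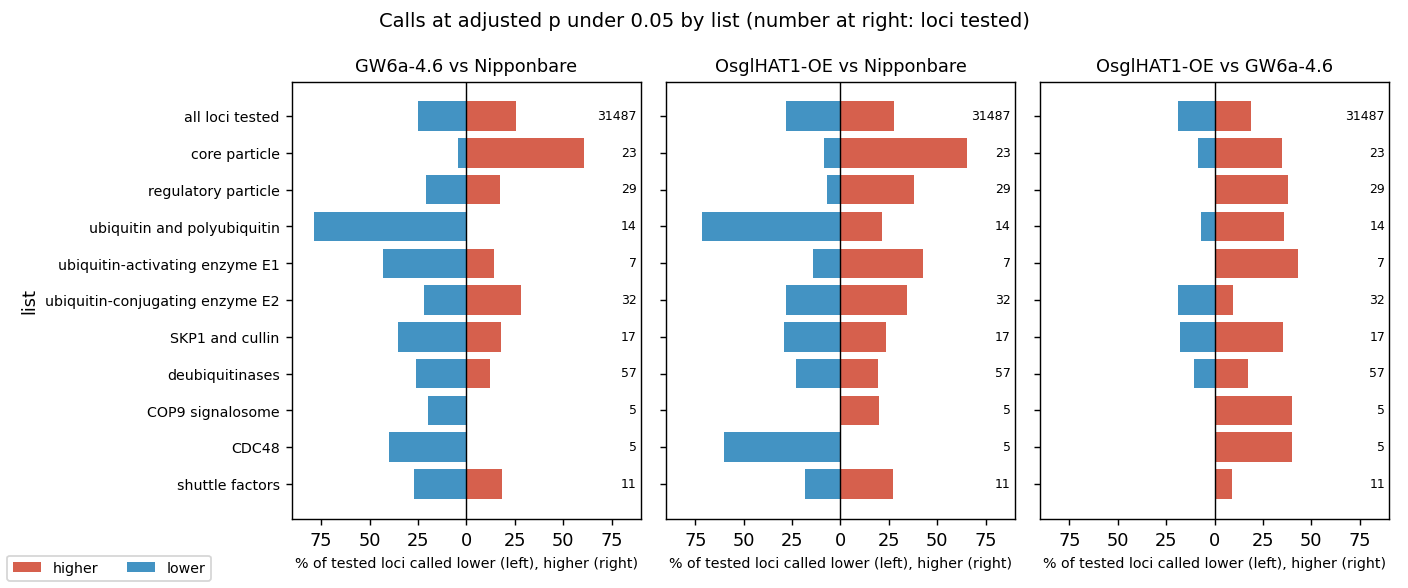
Percent of tested loci called lower (left, blue) and higher (right, red) by limma at an adjusted p under 0.05 in the 3 comparisons, for all loci, both proteasome particles and the 8 ubiquitin pathway lists, with the number of loci tested at the right of each row. Core particle bars lie mostly to the right in both comparisons with Nipponbare, and ubiquitin and polyubiquitin bars mostly to the left.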

How the data were processed

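Single-end RNA sequencing of 8 rice shoot apical meristem libraries was used, with groups taken from the sample titles. The authors deposited a signal for every transcript model, under a heading of RPM per the file headers. Bowtie, edgeR and the build IRGSP-1.0 are named in the submitters' processing notes, without versions or roles. Whole reads could be recovered from the deposited signal (100% of values, tolerance 0.01). Column totals of 2411271 to 2690367 exceed those of true RPM, and near-identical loci may share reads. The recovered reads per library numbered 5207710 to 7667853 as totals and 13884868 to 20629337 as alignments. Nothing marks duplicate reads.

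For each locus the model with the highest mean was kept, among matching models where the annotation matched. Values were divided by median-ratio factors (0.857 to 1.06) and tested with limma 3.58.1 in R 4.3.3 (lmFit, eBayes with a trended prior) on log2(value + 1), in 1 model of 8 libraries with 3 contrasts. The filter required a value of at least 1 in 2 libraries and left 31487 loci, with Benjamini-Hochberg adjustment and a threshold of 0.05. A log2 change on that scale understates the change of low loci. Folds are ratios of group means of rescaled signal. The fit was also run on simulated counts with a fixed spread and far fewer changed loci than were called here. That run does not give the error rate in these data. Sums, ratios and shares were compared by exact permutation over libraries with scipy 1.17.1. The design had assumed RPM, and the log-scale test was kept for this signal.

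The members, the gene lists and the tests were chosen with earlier results of these data known. Named with values in every library were, per particle and contrast, the 3 loci with the smallest adjusted p and up to 2 called against the majority, the highest and lowest mean, and all loci of a subunit with several. Of each pathway list up to 2 loci with the smallest adjusted p were named. Subunits were assigned from the annotation text. Alternatives covered scaling, pseudocount, filter, choice of model, prior, the replicate number as a block, the samples in the fit, edgeR 4.0.16 (TMM) and DESeq2 1.42.0 on recovered reads, and leaving out each library. Replicate numbers showed no clear pairing of the libraries. Correlations of deviations were -0.00557 to 0.0649 for the same number and -0.0649 to 0.0401 for other numbers. Deviations within a group are tied to each other, so this check is weak. No promoter or protein sequences were used here, and no motif search was run.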

Additional observations from a re-analysis of the deposited data

How the results depend on the processing

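Of 414 recomputed core and regulatory counts, ratios and GW6a/OsglHAT1 changes, 377 kept their direction and size and 37 counts moved by over 1.5 times; the causes were not tested. Against Nipponbare, the higher core counts (14 in GW6a-4.6, 15 in OsglHAT1-OE) stayed within that range under every alternative run, at 10 to 15 and 15 to 17 without 1 library. For GW6a-4.6, the 1 lower core locus became 0 without rescaling or with a prior without trend (0 to 2 without 1 library). The 5 higher regulatory loci became 3 with DESeq2 or a prior without trend (3 to 5 without 1 library). The 6 lower became 1 without rescaling, 2 with a prior without trend and 3 after quantile normalization (1 to 6 without 1 library). For OsglHAT1-OE, the 2 lower core loci became 1 after quantile normalization or with members of mean signal 10 or more only (1 to 2 without 1 library). The 11 higher regulatory loci became 6 without rescaling (7 to 13 without 1 library), and the 2 lower became 1 with edgeR or a prior without trend (0 to 2 without 1 library). Without rescaling, calls over all loci moved in the same directions. In GW6a-4.6 they went from 7993 higher and 7896 lower to 8412 and 6153. In OsglHAT1-OE they went from 8687 higher and 8921 lower to 7179 and 9357. Between the lines, the 8 higher core loci became 0 without rescaling, 1 with a prior without trend and 3 after quantile normalization (3 to 8 without 1 library), and the 2 lower became 4 without rescaling, 5 after quantile normalization and 1 with members of mean 10 or more. The 11 higher regulatory loci became 1 without rescaling and 6 with a prior without trend or quantile normalization (8 to 11 without 1 library), and the 0 lower became 1 with no filter or quantile normalization. The β5 locus Os06t0153800-01, at 0.07 between the lines, reversed to -0.15 after quantile normalization (adjusted p = 0.0169). Counts of the ubiquitin pathway lists are separate: of 960 recomputed, 86 moved by over 1.5 times. Against Nipponbare without rescaling, lower loci in GW6a-4.6 went from 3 to 1 (E1), 15 to 8 (deubiquitinases) and 1 to 0 (COP9), and higher loci in OsglHAT1-OE from 3 to 1 (E1), 11 to 5 (E2), 4 to 1 (SKP1 and cullin), 3 to 1 (shuttle factors) and 1 to 0 (COP9). With a prior without trend, E1 loci in GW6a-4.6 went from 1 to 0 higher and 3 to 1 lower, and in OsglHAT1-OE from 3 to 0 higher, E2 from 9 to 4 lower, SKP1 and cullin from 4 to 2 higher and 5 to 3 lower, CDC48 from 3 to 1 lower and COP9 from 1 to 0 higher. With DESeq2 the higher shuttle loci in OsglHAT1-OE went from 3 to 1. The higher COP9 count there was 0 to 2 over all alternatives run, and the 0 higher ubiquitin loci in GW6a-4.6 became 1 after quantile normalization. Of 3651 recomputed changes of single loci, 193 lost a call and 56 gained one. Leaving out single libraries gave 1.19 to 1.25, 1.12 to 1.17 and 0.918 to 0.963 for the core-to-regulatory ratio in the 3 comparisons. With the replicate number as a block, 7 member calls changed, and the higher core counts against Nipponbare were 14 and 16. The alternatives on members of mean 10 or more, on the proteasome/cyclosome locus and on the ratio were chosen after seeing the data. Loci with few reads, such as Os10t0141400-00, are limited by depth.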
